A study of Drosophila melanogaster with 3 samples.

Results

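The genes described here encode the 3 large families of chemosensory receptors of Drosophila melanogaster: the odorant receptors (Or), the gustatory receptors (Gr) and the ionotropic receptors (Ir). They were taken by symbol from the Ensembl protein-coding genes, as those whose symbol starts with Or, Gr or Ir and a digit, together with Orco. This gave 180 of the 13945 protein-coding genes on the 6 chromosome arms, 60 in each family, and left out 7 pseudogenes with symbols of the same kind. The rule used no measured value, although earlier results of these data were known when it was chosen. The 5 peak lists of Noc, a zinc finger protein tagged with GFP, were searched for summits at these genes.

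Odorant receptors are membrane proteins that work as channels together with the common subunit Orco, and a single olfactory neuron type usually uses 1 or a few of them. Gustatory receptors are distant relatives of them that respond to sugars, bitter compounds and, for the pair Gr21a and Gr63a, carbon dioxide. Ionotropic receptors descend from ionotropic glutamate receptors, sense acids, amines, temperature and humidity, and work with the co-receptors Ir25a, Ir8a, Ir76b and Ir93a. In larvae, the neurons that use such receptors sit in small sense organs of the head and, for some gustatory receptors, in the gut and body wall, so they make up a very small share of a whole animal.

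The data were chromatin immunoprecipitation with sequencing (ChIP-seq) from whole larvae of a transgenic line that stably carried noc with GFP at its C terminus, and chromatin was precipitated through the GFP. Per the labels, the 3 biological replicates form 1 group of mixed sex, and their age is stated as 48 days, a value taken over unchanged although it is long for a larva. All of them carried the tagged gene, and no untagged larvae were analysed here, so a peak alone does not show that Noc was bound. Each replicate list and the list from the pooled libraries held 30000 peaks, and the list that the authors made with an irreproducible discovery rate (IDR) threshold held 7201. The IDR list is the top of the pooled list by signal value, a score of the authors of unstated scale, and its peaks need not be found in every replicate. The files give no number of reads, so the depth is unknown. Wilson 95% intervals below are over genes and cover counting error only. In whole larvae, binding in a few cells and no binding cannot be told apart where no peak was called.

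The receptor genes were nearly free of peaks at their start sites. A gene was counted when a summit, the highest point of a peak, was at most 500 bp from an annotated transcription start site of the gene. In the IDR list 1 of the 180 genes had such a summit (0.556%, Wilson interval 0.0981% to 3.08%), while 24.5% of all protein-coding genes did. The receptor gene was Ir25a. Most receptor genes and 361 other genes have no annotated 5′ UTR, and 1.11% of those others had such a summit. None of the 60 odorant receptor genes and none of the 60 gustatory receptor genes had one, which allows a share of up to 5% in each family by the limit of 3 counts and up to 6.02% by the Wilson interval. The next receptor genes beyond the limit of 500 bp were Gr97a at 541 bp, Or49a at 606 bp and Ir60e at 796 bp. In the longer pooled list 10 receptor genes (5.56%, interval 3.05% to 9.92%) had a summit near a start site, against 45.4% of all genes. They were 1 odorant, 6 gustatory and 3 ionotropic receptor genes. These counts changed when a library was left out: with peaks found in both other replicates, the IDR count of 1 became 0 whichever replicate was left out, and the pooled count of 10 became 0, 3 and 0 without replicates 1, 2 and 3. The shares of all genes were then 14.8%, 18.6% and 16.2% in the IDR list and 29.0%, 37.0% and 30.1% in the pooled list.

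**Figure D1:**
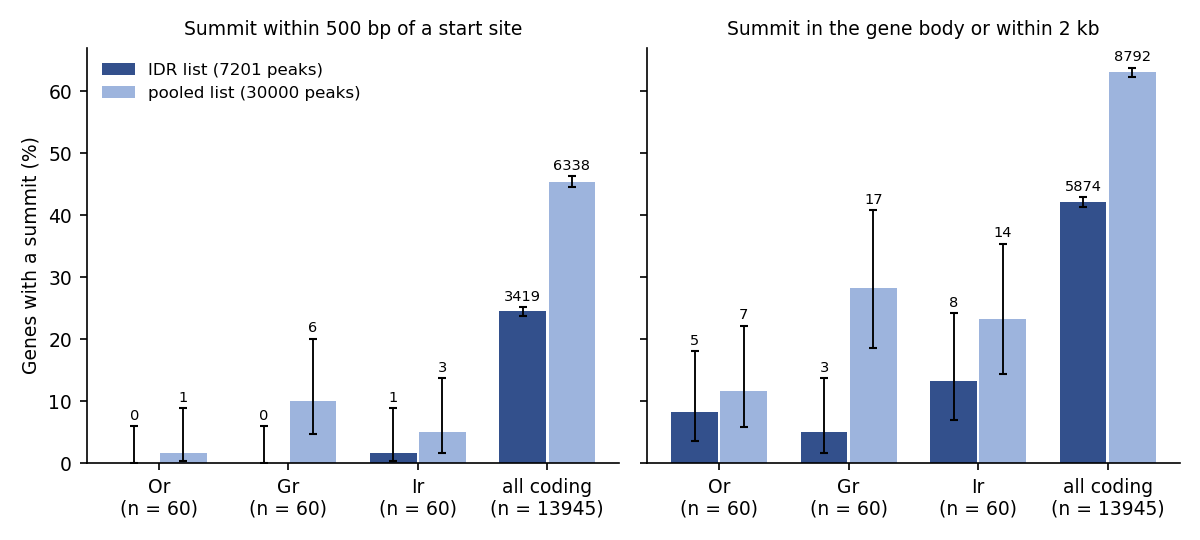
Share of genes (%) with a peak summit within 500 bp of a start site (left) and in the gene body or within 2 kb of it (right), for the 60 genes of each receptor family and for all 13945 protein-coding genes. Bars are shares in the IDR list and in the pooled list, error bars are Wilson 95% intervals, and every receptor family stands below all protein-coding genes in each panel.

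Ir25a, the broadly used co-receptor of the ionotropic family, spans 2L:4830846-4835300 on the minus strand (FBgn0031634, dm6) and has 3 annotated start sites. Its IDR peak had the summit at 4835293 on 2L, in the first exon and 7 bp downstream of the outermost start site. The signal value was 235.3, which placed the peak at rank 6549 of 7201, and the lowest signal value in the list was 217.6. In replicate 1 the matching summit lay 52 bp away at rank 7386 of 30000, with a signal value of 93.9. In replicate 3 it lay 85 bp away on the other side at rank 3171, with a signal value of 158.7. Replicate 2 had no summit within 100 bp. Its nearest summit lay in an exon, 280 bp from another start site of Ir25a, at rank 17326 with a −log10 q of 1.03. The peak was thus among the weakest of the IDR list and was placed differently in each library. The 3′ end of the gene tank, which faces Ir25a, lay 42 bp from the summit, and the start site of tank lay 2706 bp away. The sequences under the peak that belong to no annotated exon are shown because this is the IDR peak at a receptor start site. They run 5′ to 3′ on the strand of Ir25a and come from the RefSeq copy of dm6. Capitals would mark the TATA box word TATAAA, the homeodomain word TAATTA and the GATA factor word in the form AGATAA or the form TGATAA, on either strand, and neither stretch holds any.
Ir25a, intron at 2L:4835162-4835246, from 54 to 138 bp after the outermost start site: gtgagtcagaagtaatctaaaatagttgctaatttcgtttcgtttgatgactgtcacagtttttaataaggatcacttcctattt
Ir25a, gap to tank at 2L:4835301-4835334, from 34 to 1 bp before that start site: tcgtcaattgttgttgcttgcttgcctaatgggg

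The pooled list added 9 receptor genes with a start-site summit, most of them with weak peaks. Gr63a, a subunit of the carbon dioxide receptor, had a summit 259 bp upstream with a signal value of 151.8, but the start site of Lamtor4, a subunit of the lysosomal Ragulator complex, was only 38 bp from that summit. Or10a and Gr10a share an annotated start site, and their common summit lay 474 bp upstream of it with a signal value of 130.7. No replicate list had a summit within 100 bp of it. Gr89a, a receptor gene of bitter-sensing neurons, had a summit 49 bp upstream with a signal value of 67.5, matched within 100 bp in replicates 1 and 3. Decay, a caspase gene, ends 50 bp from that summit.

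The other members of this set lay near the bottom of the pooled list, whose lowest signal value is 39.9. Gr77a had a summit 100 bp upstream with a signal value of 49.9, inside the body of CG13252 and matched in no replicate. Gr21a, the partner of Gr63a, had a summit in an exon 191 bp before its inner start site, with a signal value of 47.7 and a match in replicate 3. The signal values of Ir68a, Gr39b and Ir85a were 42.9, 41.3 and 40.7, with summits 234 bp downstream, 104 bp downstream and 352 bp upstream of the start. Ir85a lies inside Pif1A and Pif1B. Of the 10 genes, 5 kept a start-site summit at a q value of 0.05 or less: Ir25a, Gr63a, Or10a, Gr10a and Gr89a.

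Stretches without exons under 4 of these peaks are shown so that the strongest pooled start-site peaks can be set beside that of Ir25a. Gr63a was added after its values were seen, as an example of a summit that lay nearer to another gene's start. All are on dm6, on the minus strand as the genes are, with the distance counted from the gene's start site, and capitals mark the same words as above.
Gr10a and Or10a, X:11417821-11417970, from 548 to 399 bp upstream, with TGATAA in capitals: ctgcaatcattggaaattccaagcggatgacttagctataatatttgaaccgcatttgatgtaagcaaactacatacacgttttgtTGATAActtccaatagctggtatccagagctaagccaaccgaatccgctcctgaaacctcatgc
Gr89a, 3R:16498960-16499057, from 98 to 1 bp upstream: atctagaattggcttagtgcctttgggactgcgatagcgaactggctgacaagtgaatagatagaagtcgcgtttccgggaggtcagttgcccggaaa
Gr77a, 3L:20739455-20739604, from 174 to 25 bp upstream, with TAATTA in capitals: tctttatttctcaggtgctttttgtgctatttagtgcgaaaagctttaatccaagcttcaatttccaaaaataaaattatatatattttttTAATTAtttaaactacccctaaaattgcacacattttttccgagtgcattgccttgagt
Gr63a, 3L:3896750-3896899, from 296 to 147 bp upstream: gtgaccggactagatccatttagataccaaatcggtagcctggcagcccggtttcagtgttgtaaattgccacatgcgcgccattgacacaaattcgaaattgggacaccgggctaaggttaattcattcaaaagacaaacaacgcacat
Of the stretches printed, that of Gr77a had the lowest GC share (28.7%) and that of Gr89a the highest (50.0%), and TATAAA occurred in none of them.

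The replicates gave low counts as well. In the 7201 strongest peaks of replicates 1, 2 and 3, the numbers of receptor genes with a start-site summit were 0, 0 and 1, beside 25.4%, 23.3% and 24.7% of all genes. The single gene, in replicate 3, was Ir25a. In the full lists the numbers were 7, 3 and 6 (2.96% ± 1.16 of the members, SD, n = 3), beside 48.5%, 42.9% and 48.4% of all genes (46.6% ± 3.22). Replicate 2 was the lowest for receptor genes and for all genes. In all, 10 receptor genes had a start-site summit in some replicate list, of which 5 were in 1 list, 4 in 2 and Ir25a in all 3. Of all 13945 protein-coding genes, 8039 had one in some replicate list and 4778 in all 3. The receptor genes in 2 lists were Gr39b, Gr63a, Gr89a and Ir60e, and those in 1 list were Gr21a, Gr77a, Gr97a, Ir68a and Ir85a. The summits of Ir60e lay 12 bp and 6 bp from the start site of CG13585 in replicates 1 and 3, and that of Gr97a lay 22 bp from the start site of CG5521 in replicate 2. No odorant receptor gene had a start-site summit in any replicate list. Across the IDR, pooled and replicate lists, 168 of the 180 receptor genes (93.3%) had none in any. The share of all protein-coding genes with none in any of these lists was not counted.

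**Figure D2:**
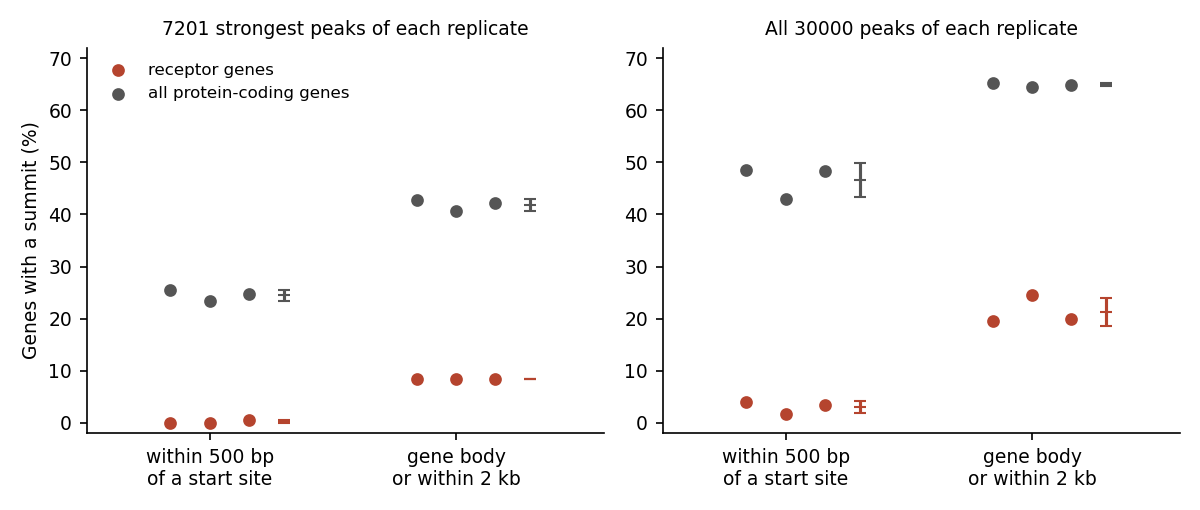
Share of genes (%) with a summit near a start site or in the gene body with 2 kb, in the 7201 strongest peaks (left) and all 30000 peaks (right) of each replicate. Points are replicates 1, 2 and 3 from left to right, the bars beside them are mean ± SD (n = 3), and the 180 receptor genes lie below all 13945 protein-coding genes in every replicate.

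More receptor genes had a peak around them than at the start site, and the same was true over all genes. The wider window contains the start-site window, so its count cannot be lower. Within the gene body or 2 kb from its ends, 16 of the 180 (8.89%, interval 5.55% to 14%) held an IDR summit, against 42.1% of all genes. They were 5 odorant (Or9a, Or10a, Or45b, Or49a and Or85f), 3 gustatory (Gr10a, Gr39b and Gr97a) and 8 ionotropic receptor genes (Ir7g, Ir25a, Ir60e, Ir68a, Ir68b, Ir75a, Ir93a and Ir94c). In the pooled list 38 (21.1%, interval 15.8% to 27.6%) held a summit, against 63.0% of all genes. The pooled counts were 7 odorant, 17 gustatory and 14 ionotropic receptor genes, and 142 of the 180 (78.9%) held none. The 7201 strongest peaks of each replicate marked 15, 15 and 15 receptor genes, beside 42.8%, 40.6% and 42.1% of all genes. Of these, 9 genes were the same in all 3 replicates: Or45b, Or85f, Gr39b, Gr97a, Ir7g, Ir25a, Ir68a, Ir75a and Ir94c. At least 1 replicate marked 21 receptor genes. Over all 13945 protein-coding genes, 4491 were marked in all 3 replicates and 7131 in at least 1. The full lists marked 35, 44 and 36 (21.3% ± 2.74, SD, n = 3), beside 65.2%, 64.5% and 64.9% of all genes. There, 25 receptor genes were in all 3 lists and 54 in at least 1, beside 7535 and 10465 of all genes. With peaks found in both other replicates, the IDR count of 16 became 9, 13 and 12 without replicates 1, 2 and 3, beside 29.2%, 34.9% and 31.3% of all genes. The pooled count of 38 became 20, 29 and 21, beside 48.5%, 55.7% and 49.7% of all genes.

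Most of these summits lay outside the receptor genes. The window itself is mostly outside them, since 2 kb were added on each side of genes with a median length of 1691.5 bp. Without the flanks, 18.0% of all protein-coding genes held an IDR summit, against 42.1% with them. Of the 20 different IDR summits, 1 was in an exon and 1 in an intron of a receptor gene, 8 were upstream and 10 downstream. A summit was credited to a neighbour when it lay within 500 bp of a start site of a gene that is no receptor gene, and nearer to it than to any start site of the receptor gene. By that rule 11 of the 20 summits belonged to a neighbour's promoter, and 8 of the 16 receptor genes had no other IDR summit. The other 8 became 5, 5 and 8 with peaks found in both other replicates, without replicates 1, 2 and 3. Of the 20 summits, 6 had no summit within 100 bp in the full list of 1 replicate, a count not made over all IDR peaks. In the pooled list 27 of 75 summits were credited to neighbours, and 13 of 38 receptor genes had no other. This rule was applied to receptor genes only, so no share of all genes stands beside these counts.

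The 2 strongest IDR peaks around receptor genes, and 9 weaker ones, lay at promoters of neighbours. Or85f, an odorant receptor gene known for its response to odours of parasitoid wasps, had a summit 3176 bp downstream of its start with a signal value of 1494 (rank 306), and this summit lay 129 bp upstream of CG8132. The strongest summit near Gr39b (signal value 1195, rank 467) lay 139 bp upstream of CG8665. The next 2 peaks by signal value were not credited to a neighbour and are given below. The other IDR summit of Or85f (signal value 769.7) followed them and lay 84 bp upstream of CG34117. These 3 peaks at neighbours' promoters were matched in every replicate, at rank 1591 or better.

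Several of the rest lay at promoters of genes with known functions. The summit near Ir75a, an acetic acid receptor gene, lay 144 bp upstream of Cln3, the gene for a lysosomal membrane protein (signal value 641.9). Or45b, a larval odorant receptor gene, had a summit 92 bp upstream of the alkaline phosphatase gene Alp6 (signal value 556.4). The summit downstream of Ir7g was 102 bp upstream of Acat1 (518.3), and that of Ir68b was 7 bp upstream of yps, which encodes a Y-box protein that binds RNA (signal value 468.5). Or9a had a summit 48 bp from the start of Neb-cGP (signal value 332.0) and Ir60e one 44 bp from that of CG13585 (281.8). The only IDR summit around the co-receptor gene Ir93a (signal value 253.7) was inside the ribosomal protein gene RpS30. It lay 23 bp upstream of a start site of RpS30 and 9371 bp from the start site of Ir93a. The weakest of the 3 summits around Gr97a (signal value 258.5) lay 96 bp from the start of CG5521.

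**Figure D3:**
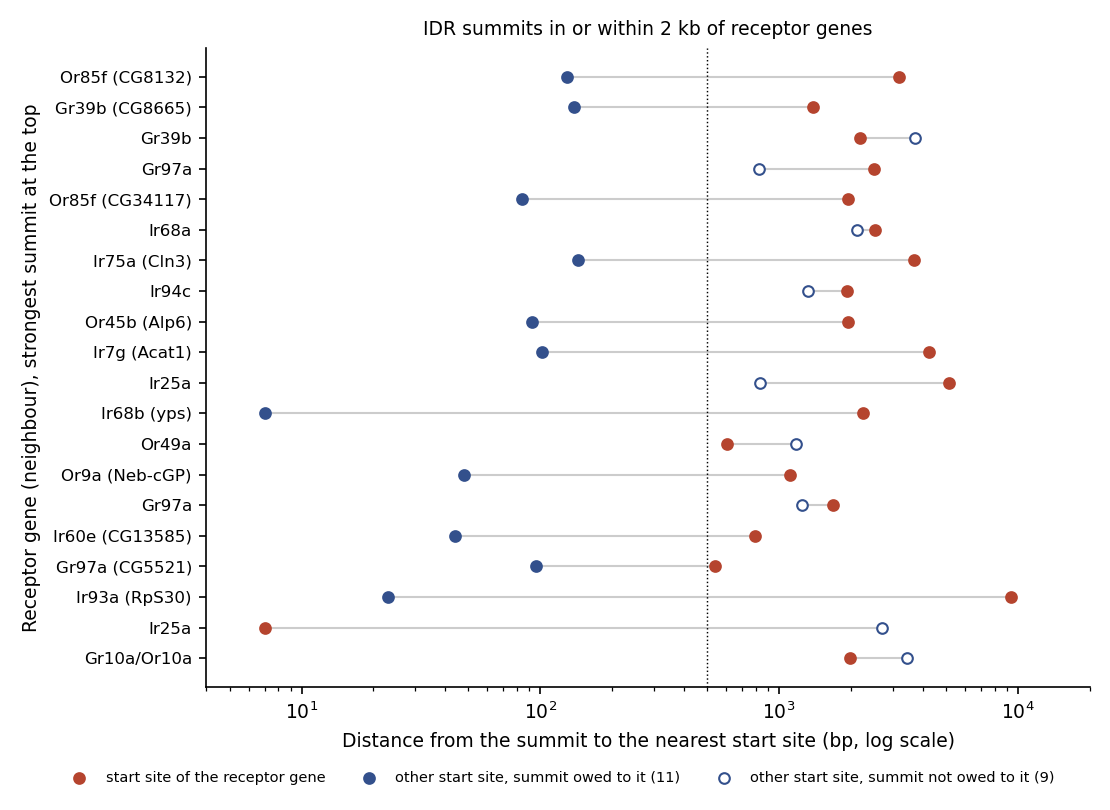
Distance (bp, log scale) of the 20 IDR summits in or within 2 kb of receptor genes from the nearest start site of the receptor gene (red) and from the nearest start site of a gene that is no receptor gene (blue), 1 row per summit, strongest at the top. The 11 summits credited to a neighbour (filled blue, neighbour in brackets) lie 7 to 144 bp from its start, and 1 summit, at Ir25a, lies within 500 bp (dotted line) of a receptor gene's own start.

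The other 9 IDR summits lay away from any neighbouring promoter. The strongest of them (signal value 947.6, rank 711) lay 384 bp past the end of Gr39b and 236 bp from the body of dtr. Next came a summit near Gr97a with a signal value of 868.6, inside the tetraspanin gene Tsp97E and 823 bp from its start site. Ir68a, a receptor gene of humidity sensing, held the single intronic summit, 2511 bp downstream of its start with a signal value of 769.6 (rank 1060). This peak was matched in all replicates, at ranks 1298, 4886 and 525 in replicates 1, 2 and 3, so its rank varied widely. It lay 2119 bp from the start site of the nearest other gene, a long noncoding RNA, and 2962 bp from the nearest other coding gene.

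The remaining summits of this kind were weaker. Ir94c had a summit 1931 bp upstream, inside CG42390 (signal value 566.1). A further peak of Ir25a (signal value 489.4, rank 2241) lay 1635 bp past its 3′ end and 3 bp beyond the body of Fnta, which encodes the alpha subunit of farnesyltransferase. Unlike the peak at its start site, this peak was matched in all replicates, at ranks 2041, 2584 and 2306. Or49a, another receptor gene for wasp odours, had a summit 606 bp upstream with a signal value of 346.4, matched in replicates 1 and 2. Gr97a had a summit 1689 bp upstream inside CG5521 (signal value 323.2). The shared start of Or10a and Gr10a had a summit 1985 bp upstream with a signal value of 234.7, and the nearest other gene, the glutamine synthetase gene Gs2, started 3425 bp from it.

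Receptor genes with a close neighbour more often had a peak around them, and so did protein-coding genes at large. A start site of another coding gene lay in or within 2 kb of 61 receptor genes (33.9%). Of these, 13 (21.3%) held an IDR summit in the same window, while 3 of the 119 others (2.52%) did, namely Or10a, Gr10a and Ir68a. Split in the same way, 48.3% of all protein-coding genes with such a neighbour and 22.3% of those without held an IDR summit. In the pooled list the shares were 39.3% and 11.8% for receptor genes and 68.1% and 46.9% for all genes. The neighbours themselves, 87 different genes, had an IDR summit near a start site in 14 cases (16.1%) and a pooled summit in 26 (29.9%), both below the shares of all genes given above. Another receptor gene lay within 2 kb of 72 members (40%), so neighbouring members can share a summit and are not independent of each other. Another coding gene enclosed 25 members (13.9%).

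The most pooled summits around 1 receptor gene were 7 at Gr39b, with 6, 7 and 5 in replicates 1, 2 and 3. Gr97a followed with 6 (6, 5 and 7 in the replicates). Ir25a had 4 (4, 3 and 5), Ir68a 4 (6, 5 and 3), Ir85a 4 (4, 4 and 3) and Gr77a 4 (1, 6 and 2). Among these genes the replicates thus differed least at Ir85a and most at Gr77a, where replicate 2 stood apart. Of the 75 pooled summits around receptor genes, 60 (80%) had a q value of 0.05 or less, and the same was true of 73.2% of all pooled peaks. A summit within 100 bp was found in all 3 replicates for 23 of the 75, in 2 for 29, in 1 for 18 and in none for 5. Among all 30000 pooled peaks, 11149 had such a summit in all 3 replicates.

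Co-receptors and receptors of known ligands showed no common pattern beyond the lack of strong start-site peaks. The start sites of Orco, the common subunit of odorant receptors, lay 38736 bp from the nearest IDR summit and 838 bp from a pooled summit of signal value 87.3. Ir8a, the co-receptor for acid sensing, was 13082 bp from the nearest IDR summit and 7209 bp from the nearest pooled summit. Ir76b, the co-receptor for amines and salt, was 29274 bp and 11970 bp away, and Ir93a 9371 bp in both lists. For the fructose receptor gene Gr43a the distances were 25824 bp and 14598 bp, and for the trehalose receptor gene Gr5a 7908 bp and 2364 bp. The carbon dioxide receptor genes differed in the IDR list, where Gr21a was 38494 bp and Gr63a 4239 bp from the nearest summit.

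As a family, the receptor genes lay far from peaks. The median distance from a receptor gene's start sites to the nearest IDR summit was 16557.5 bp (quartiles 7372 bp and 39258 bp), compared with 4881 bp (552 bp and 15720 bp) for all protein-coding genes. Odorant receptor genes had the longest median (27155 bp), followed by gustatory (23663.5 bp) and ionotropic receptor genes (12083.5 bp), with quartiles that overlap among the 3 families. In the pooled list the medians were 7277.5 bp and 947 bp. In the replicates' full lists the members' median was 8083.5 bp, 5606 bp and 8500 bp, compared with 618 bp, 1106 bp and 636 bp for all genes. Each median of the members was above each median of all genes, but the ranges between the quartiles overlapped in every replicate. In replicate 2 the quartiles were 2806 bp and 10624 bp for the members and 144 bp and 5426 bp for all genes. Replicate 2 had the shortest median for the members and the longest for all genes. Counted over the 1022 kb that the members and their 2 kb flanks cover, there were 1.96 IDR summits per 100 kb, and 6.58 over all protein-coding genes. In the full replicate lists there were 7.66 ± 1.00 against 26.1 ± 0.436 (SD, n = 3).

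**Figure D4:**
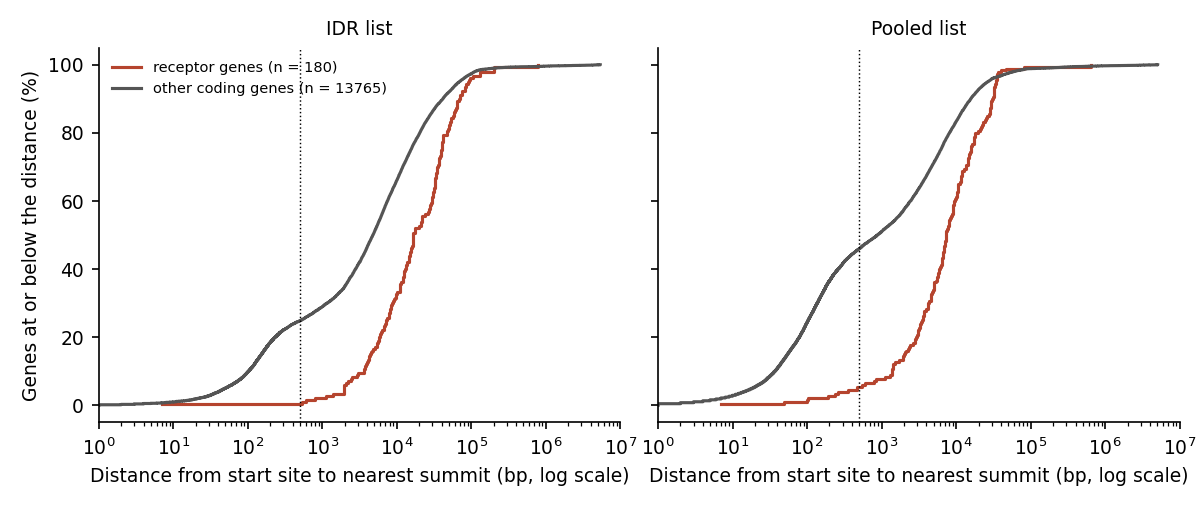
Cumulative share of genes (%) against the distance from the nearest start site to the nearest summit (bp, log scale), for the IDR list (left) and the pooled list (right), with the 180 receptor genes in red and the other protein-coding genes in grey. The dotted line marks 500 bp, and the median of the receptor genes is 16557.5 bp in the IDR list and 7277.5 bp in the pooled list.

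The receptor genes are short and have simple gene models, so their counts were also set beside those of genes with like models. Their median length was 1691.5 bp (2166 bp for all genes), and 167 (92.8%) had a single annotated start site (73.5% of all genes). Among genes with 1 start site and a length within the middle range of the members, the shares of all such genes with an IDR summit were 21.3% near the start and 38.1% with the body and 2 kb. The 90 receptor genes among them had 0 (a share of up to 3.33% is allowed) and 6 (6.67%). In the pooled list the shares of such genes were 39.4% and 57.3%, and the receptor genes had 3 (3.33%) and 17 (18.9%).

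For most receptor genes the annotated start is the start codon. No 5′ UTR is annotated for 130 of the 180 (72.2%), made up of 43 odorant, 39 gustatory and 48 ionotropic receptor genes, and all 130 read ATG at the annotated start. Over all protein-coding genes 491 (3.52%) lack it. Where these transcripts begin is therefore not known from the annotation, and a summit at the true start could lie beyond 500 bp. Among all genes without an annotated 5′ UTR, 0.815% had an IDR summit near the start and 9.16% a pooled one. The 130 receptor genes had 0 (up to 2.31% is allowed) and 5 (3.85%), and the 361 others had 4 (1.11%) and 40 (11.1%). Among all genes with an annotated 5′ UTR the shares were 25.4% and 46.8%. The 50 receptor genes with one had 1 (2%) and 5 (10%), and the 13404 others had 25.5% and 46.9%. In the IDR list receptor genes were thus below the other genes in the class with a 5′ UTR, by a count of 1 of 50. In the class without one, the 2 shares were close and both near 0. The limit of 2.31% there is above the 1.11% of the others, so these counts do not place the receptor genes below them.

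Smaller groups of receptors and related gene lists were counted in the same way. Of 25 odorant receptor genes known from larval olfactory neurons, none had a start-site summit in the IDR or the pooled list (a share of up to 12% is allowed), and 2, Or45b and Or49a, held an IDR summit in the body or within 2 kb. None of 9 sugar receptor genes had a start-site summit in either list. Of 17 antennal ionotropic receptor genes, Ir25a had an IDR summit at the start and Ir68a a pooled one. Of the 5 co-receptor genes Orco, Ir8a, Ir25a, Ir76b and Ir93a, Ir25a alone had a start-site summit in the IDR or the pooled list, and both carbon dioxide receptor genes had a pooled one.

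Among genes that work beside the receptors, those for odorant binding proteins, which are secreted into the fluid around sensory neurons, had an IDR start-site summit in 3 of 51 cases (5.88%) and a pooled one in 8 (15.7%). The 3 were Obp83g (signal value 592.9), Obp83cd (379.0) and Obp99a (274.4). None of 13 ionotropic glutamate receptor genes, the relatives of the Ir family, had an IDR start-site summit. The muscle receptor subunit gene GluRIIB had a pooled one (signal value 183.1). None of 29 pickpocket sodium channel genes had one in the IDR list and 2 did in the pooled list, ppk17 (132.9) and ppk18 (53.3). Of 14 genes for transcription factors of chemosensory neurons and their precursors, Xbp1 had an IDR start-site summit (signal value 658.3) and pros a pooled one (43.3). In each of these lists with more than 5 genes the share with a start-site summit was below that of all genes, in the IDR and in the pooled list. The pair of carbon dioxide receptor genes, with pooled summits at both, stood above, as did, by 1 gene in the IDR list, the list of Orco, Ir8a, Ir25a and Ir76b (25%).

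The DNA before the start of receptor genes was searched on both strands, over 150 bp, for 3 words: the TATA box word TATAAA, the GATA factor word AGATAA or TGATAA, and the homeodomain word TAATTA, none of which holds another, although matches can share bases. The families differed from each other. TATAAA preceded 37 of 60 odorant receptor genes (61.7%), 8 gustatory receptor genes (13.3%) and 19 ionotropic receptor genes (31.7%), compared with 29.2% of all protein-coding genes and 26.1% of the 3419 with an IDR summit at a start site. TAATTA preceded 29 gustatory (48.3%), 17 odorant (28.3%) and 9 ionotropic receptor genes (15%), compared with 10.9% of all genes and 11.1% of those with an IDR summit. The GATA word preceded 26.7% of gustatory, 18.3% of odorant and 10% of ionotropic receptor genes, with 21.4% over all genes. The median GC share of the windows was 40% for receptor genes and 38.7% for all genes. Of the 361 other genes without an annotated 5′ UTR, 32.4% had TATAAA, 28.8% the GATA word and 17.7% TAATTA. The members of a family descend from common ancestors, and 72.2% of the windows end at a start codon, so these shares describe sequences and show no binding site.

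**Figure D5:**
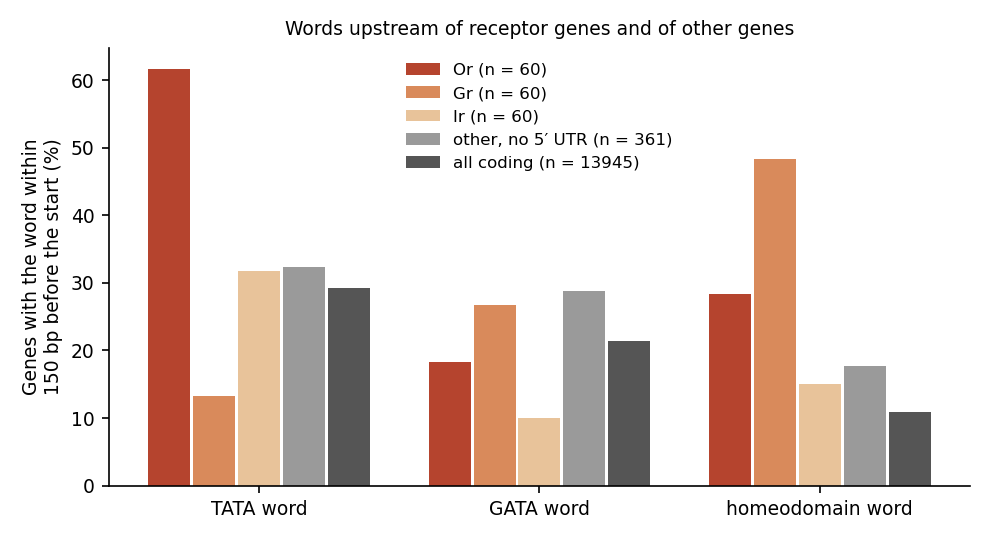
Share of genes (%) with the TATA word (TATAAA), the GATA word (AGATAA or TGATAA) and the homeodomain word (TAATTA) on either strand within 150 bp before the outermost start site. Bars are the 60 genes of each receptor family, the 361 other genes with no annotated 5′ UTR and all 13945 protein-coding genes, and the tallest bars are odorant receptor genes for the TATA word (61.7%) and gustatory receptor genes for the homeodomain word (48.3%).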

How the data were processed

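Peak lists from ChIP-seq of 3 libraries of whole larvae were used. The notes that accompany the deposited files state that a control alignment entered each replicate list and the pooled list, and that the IDR list was derived from the other lists. Peaks were thus called per library and on pooled libraries. Coordinates are dm6, per the labels. Sources used here name neither aligner nor peak caller, and no control was analysed here. The deposited signal value is a score of unknown scale, used only to rank or describe peaks within a list. The deposited −log10 q values have a ceiling, which every IDR peak reaches. A check showed that the IDR list holds the 7201 pooled peaks of highest signal value.

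Summits are the peak start plus the deposited offset, given 1-based. Genes came from the Ensembl annotation and sequence from the RefSeq copy of dm6, and on all 6 arms the highest peak end lay within the reference length. A gene was counted by a summit within 500 bp of any start site, or in its body or within 2 kb. Replicate lists were also taken to 7201 peaks by signal value, and summits matched within 100 bp. With 1 group there was no test between groups: counts stand beside those of all protein-coding genes, with Wilson 95% intervals, or as mean ± SD over the replicates (n = 3). The limit for a count of 0 is 3 counts.

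Members, gene lists and words were chosen with earlier results of these data known. Named are the co-receptors, Gr21a, Gr63a, Gr43a and Gr5a, members with an IDR summit, members with a pooled start-site summit, leaders of the lists and members with most pooled summits, and, in addition, members named to complete a small count. Sequences are stretches under start-site peaks that hold no annotated exon, since the sequence of untranslated exons is not shown, and Gr21a had no such stretch of 30 bases. Alternatives were start-site distances of 250 and 1000 bp, flanks of 0 and 5 kb, the strongest 3600 IDR or 15000 pooled peaks, each replicate's list, peaks found in the other replicates, other rules for neighbours and, chosen after the data were seen, q values of 0.05 or less. The counting was tested on simulated data. The software was Python 3.11.15 with numpy 2.4.6 and pandas 2.3.3, scipy 1.17.1 for intervals, and matplotlib 3.10.9 for figures.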

Additional observations from a re-analysis of the deposited data

How the results depend on the processing

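Counts of receptor genes are given with the share of all protein-coding genes under the same setting, which also differed between settings. For counts without summits credited to neighbours this share was not counted. For counts with a replicate left out it is given above. The number with an IDR start-site summit (1) was 4 at 1000 bp (28.6% of all genes), 0 in the 3600 strongest peaks (14.9%), and 0, 0 and 1 in the lists of replicates 1, 2 and 3 (25.4%, 23.3% and 24.7%). With the body and 2 kb, the IDR count (16) was 2 with no flank (18.0%), 38 with 5 kb (56.1%) and 10 in the 3600 strongest peaks (28.8%). Without neighbours' promoters (8), it was 2, 17 and 5. The pooled start-site count (10) was 6 at 250 bp (39.1%), 4 in the 15000 strongest peaks (36.8%), 0 for summits matched within 100 or 250 bp in all 3 replicates (26.8% and 32.6%), and 5 at a q value of 0.05 or less (41.9%). Without summits credited to neighbours (9), it was 3 in the 15000 strongest peaks, 0 and 0 for matched summits and 4 at that q value. The pooled count with the body and 2 kb (38) was 4 with no flank (34.6%), 71 with 5 kb (75.1%), 25 in the 15000 strongest peaks (55.0%), and 18 and 22 for summits matched within 100 and 250 bp in all 3 replicates (46.1% and 50.9%). Leaving out each replicate in turn keeps peaks matched in both others. The IDR counts were then 0 to 0 at start sites, 9 to 13 with the body and 5 to 8 without neighbours' promoters. The pooled counts were 0 to 3 at start sites, 20 to 29 with the body and 0 to 2 at start sites without neighbours' promoters. These sets hold only 3925 to 4901 IDR and 13220 to 16890 pooled peaks, called with all 3 replicates. Without replicate 2, the call of Ir25a was lost because its peak stood at rank 7386 of replicate 1, beyond the 7201 used. The other alternatives, such as 3 rules for neighbours, left the counts within 1.5 times those reported. No paired analysis was possible because the samples form 1 group. Depth is unknown, and binding in few cells of a whole larva may not give a peak, so a count of 0 does not show that Noc is absent.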
